A study of Homo sapiens with 6 samples.

Results

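Fibroblast growth factor (FGF) signalling was examined through 10 genes, namely the ligand *FGF2*, the receptors *FGFR1*, *FGFR2*, *FGFR3* and *FGFR4*, the adaptor *FRS2* and the feedback inhibitors *SPRY1*, *SPRY2*, *SPRY4* and *DUSP6*. They were chosen by symbol from the 26485 genes of the count table, with earlier results of these data known. Each of the 10 was among the 14877 genes that passed the filter on low counts. *FGF2* was the 1 member called at an adjusted p under 0.05 (edgeR), with lower levels in the knockdown cells. This call was kept in 12 of 15 alternative fits of the same counts. The other 9 members did not pass the test in either direction, and *SPRY4* came closest (lower, adjusted p = 0.0501, edgeR). Missing this threshold does not show that a gene was unchanged.

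RNA-seq was performed on 6 cultures of HEK293, a transformed line of human embryonic kidney cells. In 3 cultures (knockdown) the long noncoding RNA *HSALNG0134318*, which the study selected as a possible regulator of kidney development, was targeted by transient transfection of a Smart Silencer, a mix of small interfering RNAs and antisense oligonucleotides, and 3 cultures served as control. The labels call the control cultures wild type and NC, and what they were transfected with is not given in the sources used here. The comparison asks how loss of this RNA alters gene expression in kidney-derived cells. *HSALNG0134318* has no row in the table, so its own level could not be checked in these counts. The study also ran RT-qPCR after knockdown in HEK293 cells and lists primers for this RNA, and those values were not used here. The methods describe independent experiments for each group, and the p-values measure the spread between these cultures of 1 cell line. Total counts ran from 13900965 to 15583535 in knockdown and from 14732648 to 16869948 in control cultures. Control replicate 2 stood apart, at a root mean square difference of 0.445 and 0.485 log2 units from the other control cultures, which were 0.369 apart, whereas the knockdown cultures were 0.271 to 0.315 apart. From the knockdown cultures, control replicate 3 was 0.397 to 0.413 away, nearer than it was to control replicate 2. Control replicate 1 was 0.467 to 0.497 and control replicate 2 0.527 to 0.545 away from them. The HEK293 and kidney lineage markers (*PAX2*, *VIM*, *KRT8*, *KRT18*, *CDH2*, *NEFM* and *EPCAM*) were all measured, and edgeR called 0 of 7. At an unadjusted p under 0.05, 2 were higher in knockdown and 0 lower, beside 13.1% and 13.8% of all genes tested. Of their 7 log2 fold changes 6 were positive, with a median of 0.20, beside -0.02 over all genes tested. The leukocyte genes *CD3E* and *PTPRC* and the endothelial genes *PECAM1* and *CDH5* had between 0 and 5 counts in every culture. Of the same marker lists, *CD68* was measured at 92.0 ± 14.7 normalized counts in knockdown and 81.5 ± 16.05 in control (not called), and the VEGF receptor *KDR* at 49.3 ± 14.0 and 89.0 ± 3.40 (log2 fold change -0.85, SE 0.24, adjusted p = 0.0438, edgeR), and their part in the FGF pathway values was not tested.

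FGFs are secreted proteins that bind receptor tyrosine kinases on the cell surface together with heparan sulphate. The activated receptor phosphorylates the adaptor FRS2, which recruits GRB2, SOS and the phosphatase SHP2 and so switches on RAS and the ERK kinase cascade. ERK in turn induces its own inhibitors, among them the Sprouty proteins and the phosphatase DUSP6, and the same pathway guides branching of the ureteric bud and survival of nephron progenitors in the developing kidney.

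Sequence before the start of 4 of these genes is shown because *FGF2* was the gene called, *SPRY2* and *DUSP6* are feedback genes with lower mean levels in knockdown, and *FGFR3* is a receptor with a higher one. Each stretch holds the 100 bases directly upstream of the gene as annotated by GENCODE release 44, lies within the 300-base promoter window of the RefSeq table (GRCh38.p14) and is written in the direction of transcription. Capitals mark the GC box GGGCGG, the core site of SP1 factors, or its reverse complement.
FGF2: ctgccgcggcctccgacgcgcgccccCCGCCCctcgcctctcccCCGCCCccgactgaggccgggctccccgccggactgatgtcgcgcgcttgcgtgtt
SPRY2: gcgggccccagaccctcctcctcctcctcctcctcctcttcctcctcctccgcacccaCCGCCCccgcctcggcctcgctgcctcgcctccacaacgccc
DUSP6: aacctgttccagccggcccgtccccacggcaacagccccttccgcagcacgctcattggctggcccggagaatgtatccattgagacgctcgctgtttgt
FGFR3: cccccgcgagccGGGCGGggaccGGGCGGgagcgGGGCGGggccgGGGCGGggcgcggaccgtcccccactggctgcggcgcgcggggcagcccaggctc
The *FGF2* stretch (chr4:122826582-122826681, + strand) was 80% G and C and held 2 GC boxes. The *SPRY2* stretch (chr13:80341127-80341226, − strand) was 75% G and C with 1 box. In the *DUSP6* stretch (chr12:89352502-89352601, − strand) the G and C share was 62% and no box was found. The *FGFR3* stretch (chr4:1793193-1793292, + strand) was the richest of the 4, at 89% G and C with 4 boxes. Over the full 300-base windows that hold these stretches, the numbers of GC boxes were 3 for *FGF2*, 2 for *SPRY2*, 0 for *DUSP6* and 8 for *FGFR3*. Further windows of *SPRY2* held 0 and 1 boxes. At least 1 box on either strand was present in 45% of the 35116 windows of 300 bases. The ETS motif CCGGAAG, the AP-1 motif TGANTCA and the EGR1 motif GCGTGGGCG, which belong to transcription factors acting downstream of ERK, were searched on both strands and occurred in 10.3%, 7.71% and 0.795% of windows. None of these 3 motifs was found in the windows of *FGF2*, *SPRY4*, *SPRY2*, *DUSP6*, *FGFR3*, *FGFR4* or *FGFR2*, whereas *FRS2* and *SPRY1* each had 1 match to the ETS motif. A match or its absence describes the letters of these windows alone.

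*FGF2* encodes basic fibroblast growth factor, a ligand that binds several FGF receptors, and the gene spans chr4:122826682-122898236 (+ strand). Its normalized counts were 167, 193 and 175 in knockdown replicates 1 to 3 and 314, 262 and 278 in control replicates 1 to 3. The groups did not overlap, and the highest knockdown culture lay well under the lowest control culture. The mean was 178 ± 13.4 in knockdown and 285 ± 26.6 in control (SD, n = 3 each), a fold of 0.626. *FGF2* fell by 0.68 on the log2 scale (SE 0.14, 95% interval -0.98 to -0.37, adjusted p = 0.0115, edgeR's quasi-likelihood test with Benjamini-Hochberg adjustment over all genes tested). Among the 10 members 1 was called lower, against 4.64% of all genes tested, and 0 were called higher, against 5.40%, with 10% of all genes called in either direction. At an unadjusted p under 0.05, 4 members were lower and 2 higher, beside 13.8% and 13.1% of all genes tested, and the DESeq2 Wald test also called 1 lower and 0 higher, beside 5.88% and 6.35%. In bulk RNA, fewer cells that express a gene and less of its RNA per cell cannot be told apart. *FGF2* was among the genes that the study drew from these same cultures for its enriched terms, so that choice is not independent evidence of its direction.

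The *FGF2* call was made in 12 of 15 alternative fits, with adjusted p-values from 0.00201 to 0.0679. It was lost without knockdown replicate 1 (adjusted p = 0.0614), without knockdown replicate 3 (0.0679) and without control replicate 1 (0.0541), each with edgeR and Benjamini-Hochberg adjustment. The log2 fold change kept its sign throughout, between -0.74 and -0.59. *NUDT6*, an antisense gene at chr4:122888697-122922968 (− strand), shares 9540 bp with *FGF2*, and the strand setting of the read counting is not given in the sources used here. Its normalized counts were low, at 31.5 ± 10.6 in knockdown and 30.7 ± 7.04 in control, with a log2 fold change of 0.03 (SE 0.33, adjusted p = 0.966).

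**Figure D1:**
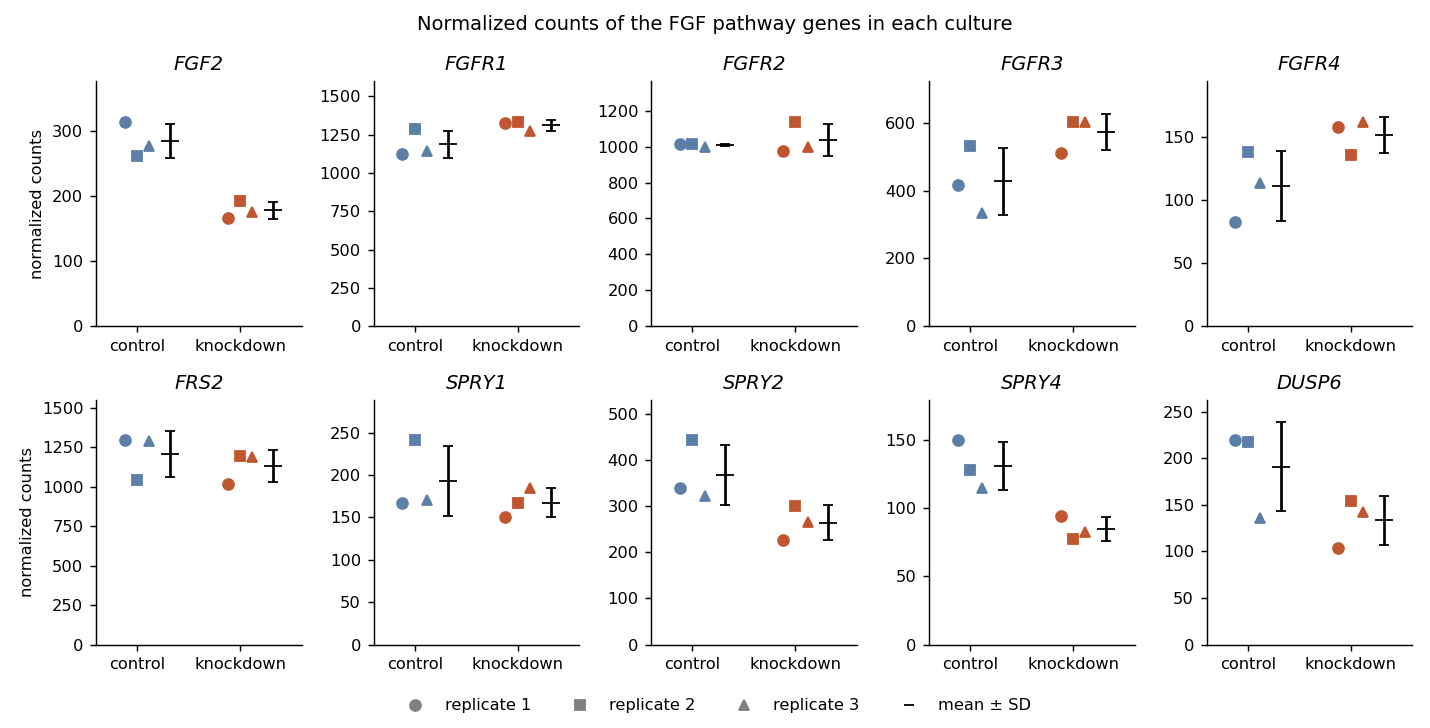
Normalized counts (y axis, from 0, with a scale of its own for each gene) of the 10 FGF pathway genes in each control (blue) and knockdown (orange) culture, with symbols for the replicate number and bars for the mean ± SD of 3 cultures. *FGF2*, *SPRY2* and *SPRY4* show no overlap between the groups, and in *DUSP6* control replicate 3, at 136, lies within the knockdown range.

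The groups did not overlap in 3 of the 10 members (*FGF2*, *SPRY2* and *SPRY4*, each lower in knockdown), and 32.2% of all genes tested showed no overlap. The log2 fold change was negative in 6 members and positive in 4, with a median of -0.15, beside -0.02 over all genes tested.

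The 4 FGF receptors are tyrosine kinases that share a ligand-binding ectodomain with immunoglobulin-like domains and differ in the ligands they prefer. None of them was called, beside 10% of all genes tested called in either direction. *FGFR1* (chr8:38400215-38468834, − strand) is widely expressed in mesenchyme, and its normalized counts were 1325, 1334 and 1272 in knockdown and 1125, 1290 and 1145 in control replicates 1 to 3. Control replicate 2 overlapped the knockdown range. The difference was 0.14 on the log2 scale (SE 0.09, 95% interval -0.06 to 0.34, adjusted p = 0.352). For *FGFR2* (chr10:121478332-121598458, − strand), a receptor of the ureteric bud epithelium, counts were 978, 1139 and 997 in knockdown against 1014, 1016 and 1001 in control. The control cultures lay inside the knockdown range, and the log2 fold change was 0.04 (SE 0.10, 95% interval -0.17 to 0.25, adjusted p = 0.834).

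*FGFR3* (chr4:1793293-1808872, + strand), which restrains growth of cartilage, had normalized counts of 511, 603 and 602 in knockdown and 416, 531 and 334 in control replicates 1 to 3. Control replicate 2 exceeded the lowest knockdown culture, so that the groups overlapped. The means were 572 ± 53.0 and 427 ± 98.8, and the log2 fold change was 0.42 (SE 0.16, 95% interval 0.07 to 0.77, unadjusted p = 0.0235, adjusted p = 0.120). *FGFR4* (chr5:177086905-177098144, + strand), the receptor for bile acid regulating FGF19 in liver, gave 158, 136 and 162 in knockdown and 82.7, 138 and 113 in control. Again control replicate 2 overlapped the knockdown cultures. The log2 fold change of *FGFR4* was 0.44 (SE 0.20, adjusted p = 0.184). Without control replicate 2, *FGFR3* was called at 0.61 (adjusted p = 0.00446) and *FGFR4* at 0.63 (adjusted p = 0.0329), and *FGFR3* was also called with a correction for GC content and length (0.40, adjusted p = 0.0357). The transcripts of both genes are rich in G and C (62.2% for *FGFR3* and 63.4% for *FGFR4* in the longest transcript, beside 37.6% for *FGF2*). With the correction for GC content and length, *FGFR4* was at 0.46 (adjusted p = 0.0779, edgeR), beside 0.44 without it, and was not called. The value of *FGFR3* was 0.40 with it and 0.42 without. Beyond these corrected fits, a part of this base content in their fold changes was not tested.

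*FRS2* (chr12:69470349-69579793, + strand), the membrane-anchored adaptor that receptors phosphorylate, had normalized counts of 1018, 1194 and 1192 in knockdown and 1295, 1042 and 1293 in control replicates 1 to 3. The groups were intermixed, with the lowest culture in knockdown and the next lowest in control. The log2 fold change was -0.09 (SE 0.11, 95% interval -0.34 to 0.16, adjusted p = 0.643).

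Sprouty proteins block the path from receptors to RAS, and DUSP6 removes the activating phosphates from ERK in the cytoplasm. All 4 feedback genes had lower means in knockdown, and none passed the test. Over all genes tested, 52.7% of log2 fold changes were negative and 4.64% of genes were called lower. *SPRY4* (chr5:142310427-142326455, − strand) came closest, with 94.5, 77.2 and 82.7 normalized counts in knockdown and 150, 129 and 115 in control replicates 1 to 3. Every knockdown culture was below every control culture. The means were 84.8 ± 8.83 and 131 ± 17.5, and the log2 fold change was -0.63 (SE 0.18, 95% interval -1.03 to -0.23, adjusted p = 0.0501). *SPRY2* (chr13:80335976-80341126, − strand) had 227, 301 and 266 in knockdown and 340, 444 and 322 in control. These groups did not overlap either, and control replicate 2 was the highest culture. The log2 fold change of *SPRY2* was -0.48 (SE 0.16, 95% interval -0.83 to -0.13, adjusted p = 0.0810).

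For *DUSP6* (chr12:89347235-89352501, − strand) the normalized counts were 104, 154 and 143 in knockdown and 219, 218 and 136 in control replicates 1 to 3. Control replicate 3 lay below 2 of the knockdown cultures, while the other control cultures were above all 3. The log2 fold change was -0.52 (SE 0.22, 95% interval -0.99 to -0.04, unadjusted p = 0.0357, adjusted p = 0.153). *SPRY1* (chr4:123396795-123403760, + strand), which limits ureteric bud outgrowth and begins 498558 bp beyond the end of *FGF2*, had 150, 167 and 185 in knockdown and 167, 241 and 171 in control. Control replicate 2 was far above the others, and without it the log2 fold change of *SPRY1* went from -0.21 (SE 0.18, adjusted p = 0.487) to -0.02 (adjusted p = 0.957).

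Calls of the feedback genes depended on single choices. *SPRY4* passed in 4 of 15 alternative fits, among them those without control replicate 2 (adjusted p = 0.0343) and without control replicate 3 (0.0351), and its highest adjusted p was 0.206. *SPRY2* passed in 3, namely without a filter on low counts and in both fits corrected for GC content and length, with a highest adjusted p of 0.254. *DUSP6* passed in 1, without control replicate 3 (log2 fold change -0.70, adjusted p = 0.0344), and reached 0.405 at the most. *SPRY1* passed in 0 of them. The p-values are from edgeR, and an exact permutation test of 3 cultures against 3 could not go below 0.1.

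**Figure D2:**
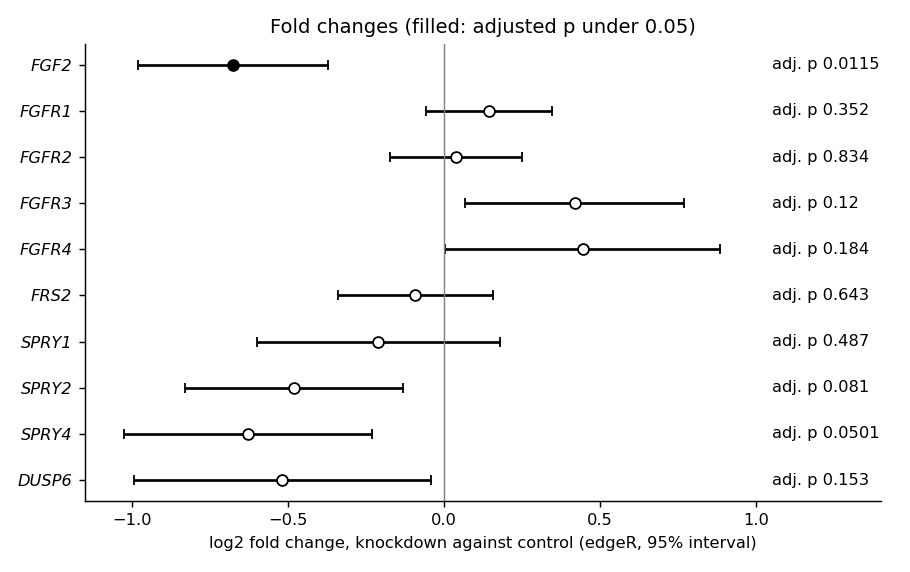
Log2 fold change of each FGF pathway gene, knockdown against control (x axis), with its 95% interval from edgeR and adjusted p at the right, a filled point marking an adjusted p under 0.05. *FGF2* is the filled point, and the intervals of *SPRY2*, *SPRY4*, *DUSP6*, *FGFR3* and *FGFR4* also exclude 0 before adjustment over all genes.

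**Figure D3:**
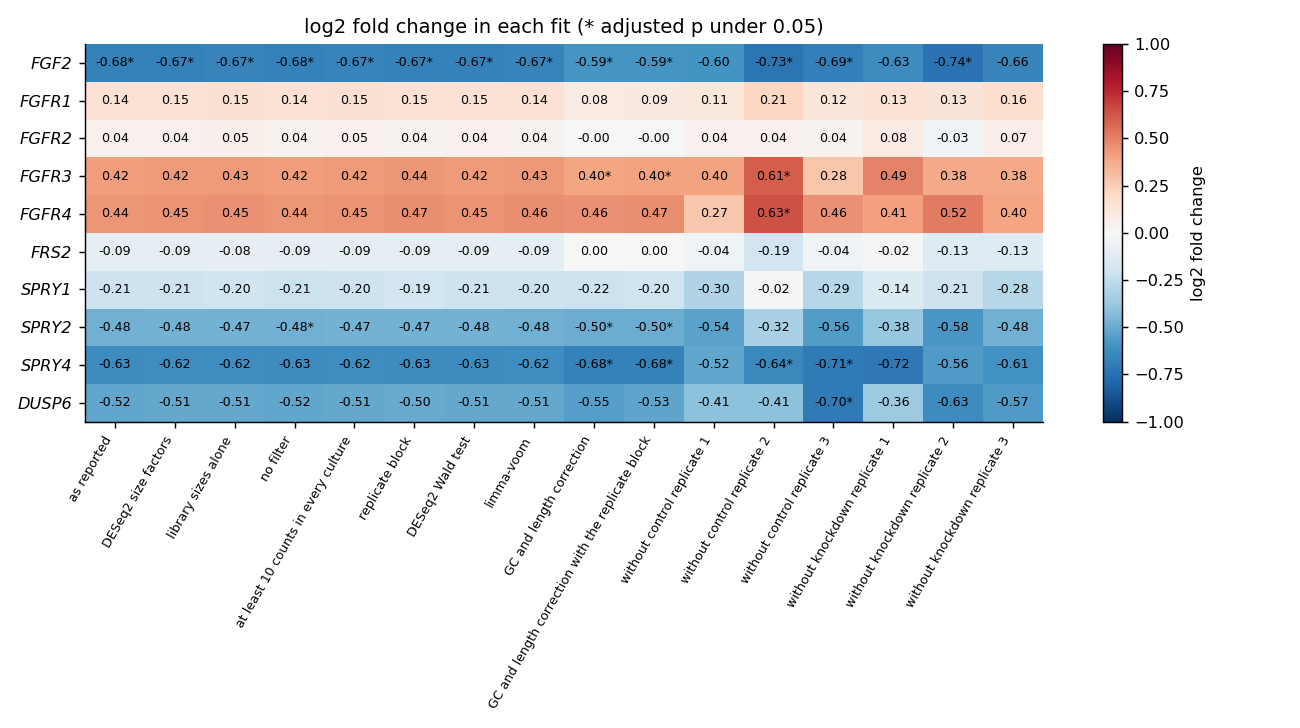
Log2 fold change (colour and printed value) of each FGF pathway gene (rows) in the fit as reported and in 15 alternatives (columns), with an asterisk for an adjusted p under 0.05. *FGF2* has an asterisk in 12 of the 15 alternatives, whereas *FGFR1*, *FGFR2*, *FRS2* and *SPRY1* have none.

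Levels of different genes were compared as CPM per kilobase of annotated exon, where CPM are counts scaled by the size of the library. On this scale the control order was *FRS2* (11.05 ± 1.30), *SPRY2* (7.59 ± 1.39), *FGFR3* (5.84 ± 1.38), *FGFR1* (4.57 ± 0.358), *FGFR2* (3.55 ± 0.056), *DUSP6* (3.28 ± 0.841), *SPRY1* (3.22 ± 0.705), *FGF2* (2.77 ± 0.268), *FGFR4* (1.53 ± 0.384) and *SPRY4* (1.33 ± 0.186) (SD, n = 3). Neighbours in this order were separated beyond the range of the control cultures between *FRS2* and *SPRY2*, between *FGFR1* and *FGFR2* and between *FGF2* and *FGFR4*, and the other neighbours overlapped. In knockdown the level of *FGF2* was 1.75 ± 0.127, below that of *FGFR4* at 2.11 ± 0.206, although in control it was above, and the knockdown cultures of these genes overlapped. *SPRY4* had the lowest mean in both groups, at 0.862 ± 0.090 in knockdown.

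Of the summed receptor level in control, *FGFR3* made up 37.4%, *FGFR1* 29.6%, *FGFR2* 23.2% and *FGFR4* 9.86%. In knockdown the shares were 41.9%, 27.2%, 19.6% and 11.3%. The summed level of the 4 receptors was 17.8, 19.3 and 19.1 in knockdown replicates 1 to 3 and 14.8, 17.8 and 13.9 in control replicates 1 to 3, so that control replicate 2 all but met the lowest knockdown culture. The order rests in part on the length used, above all for *FGFR1* and *FGFR2*. Annotated exons cover 18.8 kb for *FGFR2*, and its longest transcript 6.96 kb. For *FGFR1* these lengths are 17.2 kb and 6.22 kb. Per kilobase of the longest transcript, *FGFR1* had a mean control level of 12.6, which overlapped that of *FRS2* (11.8 ± 1.39), and its receptor share was 40.6%, above the 20.9% of *FGFR3*. *FGFR2* was then at 9.60 ± 0.150 in control, above *FGFR3* at 6.57 ± 1.55. With this length the control cultures of *FRS2* and *SPRY2* overlapped, as did those of *FGF2* and *FGFR4*. In knockdown, every culture was then higher for *FGFR4* than for *FGF2*.

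**Figure D4:**
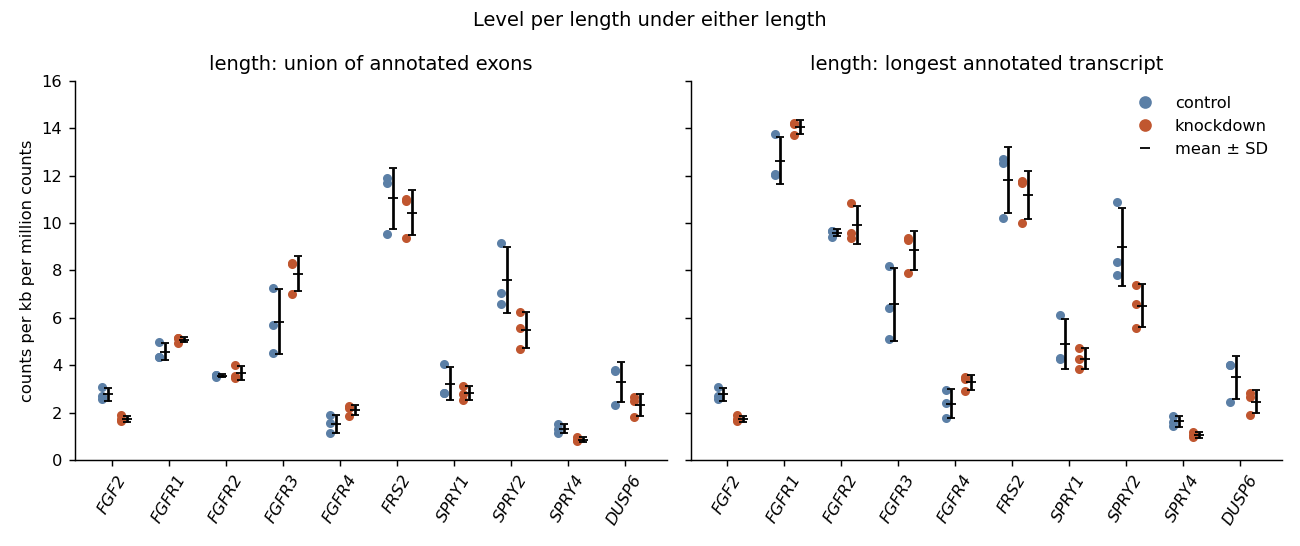
Level of the 10 FGF pathway genes in CPM per kilobase (y axis), per kilobase of all annotated exons (left) or of the longest annotated transcript (right), for each control (blue) and knockdown (orange) culture with mean ± SD of 3. *FGFR1* moves from 4.57 to 12.6 in control with the length used, whereas *FGF2*, whose lengths coincide, stays at 2.77.

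The remaining genes of the pathway were described by role, in lists chosen with earlier results of these data known. Of 21 other FGF ligands 5 had enough counts to be tested (*FGF5*, *FGF9*, *FGF11*, *FGF12* and *FGF13*), and 0 of them were called by edgeR, by the DESeq2 Wald test or at an unadjusted p under 0.05, with log2 fold changes from -0.34 to 0.14. *FGF13*, an intracellular homologue that acts on sodium channels, was the most counted of these 5 at 883 ± 41.3 normalized counts in control and 780 ± 67.6 in knockdown (log2 fold change -0.18, adjusted p = 0.295). It was named after its values were seen, as was *GRB2*. Among 12 tested of 16 coreceptors and carriers 1 rose and 0 fell, near the 5.40% and 4.64% of all genes. This was *FGFBP3*, which encodes a secreted protein that releases FGFs from the matrix, with 108, 89.7 and 80.5 normalized counts in knockdown and 45.9, 65.2 and 51.4 in control replicates 1 to 3. The groups did not overlap, and *FGFBP3* was 1.71-fold higher (log2 0.77, SE 0.22, adjusted p = 0.0454). This call was lost in 5 of 6 fits that left out 1 culture, all but the one without control replicate 2, with adjusted p-values from 0.0679 to 0.174, and in the fit blocked on replicate number (0.0566).

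Of 19 adaptors and kinases between receptor and ERK, all tested, 1 fell and 1 rose, near the 4.64% and 5.40% of all genes. *NRAS*, 1 of the 3 RAS genes, had normalized counts of 1622, 1811 and 1914 in knockdown and 2632, 2183 and 2865 in control replicates 1 to 3. All control cultures were higher, and *NRAS* fell by 0.52 on the log2 scale (SE 0.11, adjusted p = 0.0143). *PTPN11*, which encodes the phosphatase SHP2 that FRS2 recruits, had 5431, 5501 and 5491 in knockdown and 3528, 2831 and 4328 in control. The knockdown cultures were close to each other (SD 37.9) and above every control culture, and *PTPN11* rose by 0.62 on the log2 scale (SE 0.13, adjusted p = 0.0132). *NRAS* lost its call without knockdown replicate 1 (adjusted p = 0.0812), knockdown replicate 2 (0.0624) or control replicate 1 (0.0602). *PTPN11* lost it without knockdown replicate 1, 2 or 3 (0.0576, 0.0560 and 0.0576) or control replicate 1 (0.0611). The list as a whole had 13 negative and 6 positive log2 fold changes and a median of -0.09, beside 52.7% negative and a median of -0.02 over all genes. Of the 19 genes 5 did not overlap between groups, beside 32.2% of all genes tested. *GRB2*, the adaptor that brings SOS to FRS2, was not called at -0.16 (SE 0.08, adjusted p = 0.248).

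Of 12 other feedback inhibitors, all tested, 0 were called by edgeR, 3 had an unadjusted p under 0.05 (2 lower, 1 higher, beside 13.8% and 13.1% of all genes), and the DESeq2 Wald test called 1 lower (beside 5.88%). These counts are near the shares over all genes. In this list 11 genes had negative log2 fold changes, with a median of -0.20 beside -0.02 over all genes. *DUSP5*, a nuclear ERK phosphatase, had 221, 199 and 202 normalized counts in knockdown and 368, 526 and 201 in control replicates 1 to 3. Control replicate 3 lay within the knockdown range, and the log2 fold change was -0.82 (SE 0.29, adjusted p = 0.110). *DUSP7*, a cytoplasmic relative of *DUSP6*, was at -0.47 (SE 0.16, adjusted p = 0.0808) and did not overlap between groups. *DUSP4* was the 1 gene of the list with a positive value, at 0.44 (SE 0.16, adjusted p = 0.110), and its groups did not overlap either. *SPRED2*, a Sprouty-related inhibitor of RAF activation, was at -0.16 (SE 0.09, adjusted p = 0.311), also without overlap. Of the 12 genes 5 did not overlap between groups, beside 32.2% of all genes tested. *DUSP5*, *DUSP7*, *DUSP4* and *SPRED2* were named after their values were seen. Across the 15 alternatives between 0 and 2 genes of this list were called lower and 0 higher.

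Of 14 genes that ERK signalling is known to induce, 3 fell and 0 rose, beside 4.64% and 5.40% of all genes. Negative log2 fold changes numbered 11 of 14, with a median of -0.33, beside 52.7% negative and a median of -0.02 over all genes. Because the list was chosen with earlier results of these data known, these counts are not independent evidence of a direction. *CCND1*, which encodes cyclin D1 and drives entry into the cell cycle, had normalized counts of 1126, 1177 and 1191 in knockdown and 1825, 1725 and 1788 in control replicates 1 to 3. The groups were far apart relative to their spread, and *CCND1* fell by 0.61 on the log2 scale (SE 0.08, adjusted p = 0.00139). *EPHA4*, an ephrin receptor, fell by 0.83 (SE 0.13, adjusted p = 0.00259), from 1411 ± 247 to 794 ± 42.6 normalized counts. *EPHA2*, a related receptor, fell by 0.59 (SE 0.14, adjusted p = 0.0213), from 823 ± 83.8 to 548 ± 97.2. *CCND1* and *EPHA4* were called in 15 of 15 alternatives. *EPHA2* was called in 12, and lost its call without knockdown replicate 2 (adjusted p = 0.102), knockdown replicate 3 (0.115) or control replicate 1 (0.0551). The ETS factors *ETV4* and *ETV5*, often read as FGF targets, were not called, at -0.11 (SE 0.21, adjusted p = 0.775) and -0.33 (SE 0.18, adjusted p = 0.266). *ETV1*, another ETS factor of the list, was at -0.36 (SE 0.14, adjusted p = 0.130, edgeR) and was not called either. The immediate early gene *EGR1* had a value of -0.56 (SE 0.17, adjusted p = 0.0609) with no overlap between groups. *FOS* and *MYC* were at 0.03 and 0.27 without a call, and *MYC* was higher in every knockdown culture than in any control culture. Of the 14 genes 5 did not overlap between groups, beside 32.2% of all genes tested. *ETV1*, *ETV4*, *ETV5*, *EGR1*, *FOS* and *MYC* were named after their values were seen.

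**Figure D5:**
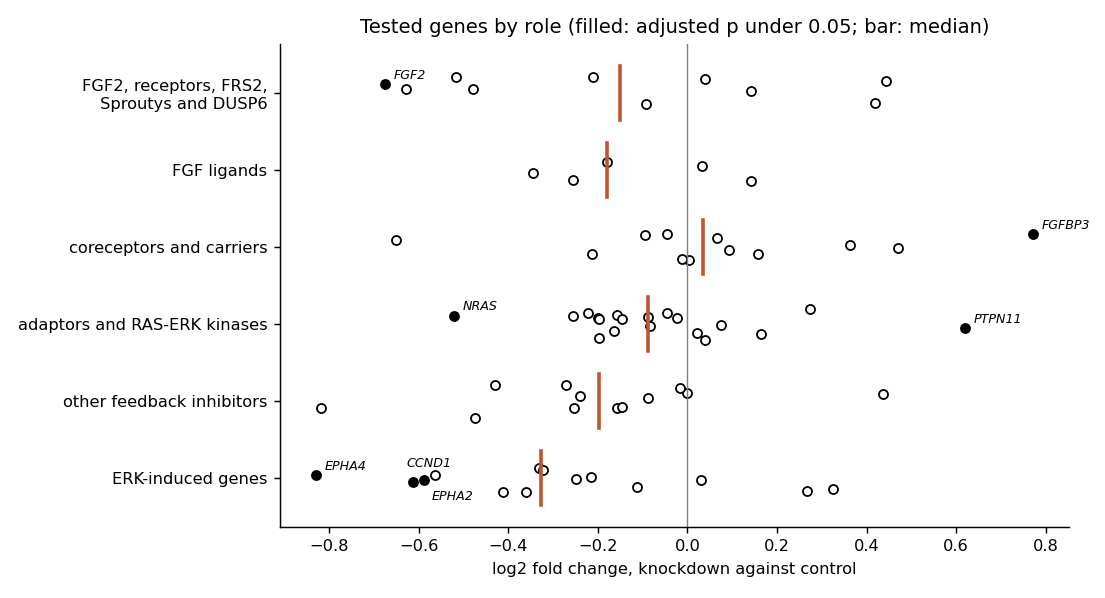
Log2 fold change, knockdown against control (x axis), of every tested gene of the FGF pathway by role (rows), with filled points for an adjusted p under 0.05 and an orange bar for the median of each list. The filled points are *FGF2*, *FGFBP3*, *NRAS*, *PTPN11*, *EPHA4*, *CCND1* and *EPHA2*, and the medians run from -0.33 for ERK-induced genes to 0.03 for coreceptors and carriers.

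Genes whose profile over the 6 cultures was nearest to that of *FGF2*, measured as the root mean square difference of centred log2 levels, were *LPGAT1* (0.0320), *SAMD9* (0.0399) and *KPNA3* (0.0407). Their log2 fold changes were -0.64, -0.70 and -0.65, near the -0.68 of *FGF2*. Those nearest to *DUSP6* were *TSPAN2* (0.0652), *RGMB* (0.0922) and *ZNF879* (0.0934), with log2 fold changes of -0.49, -0.52 and -0.49, none of which was called. Because neighbours were picked by profile over these same knockdown and control cultures, similar fold changes follow from the choice.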

How the data were processed

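Polyadenylated RNA of 6 HEK293 cultures (3 knockdown, 3 control) was sequenced from stranded libraries. The authors deposited whole-number counts of reads per gene without normalization, made per the submitters' processing notes with FastQC 0.11.9, Trim Galore 0.6.6, STAR 2.7.9a and featureCounts 2.0.1 on hg38. The methods also name SortMeRNA for removal of ribosomal RNA and other versions of STAR and featureCounts, and the gene annotation and strand setting are not given in the sources used here, so overlapping genes may share reads.

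Genes were filtered with filterByExpr (14877 kept), normalized with TMM and tested with the robust quasi-likelihood F test of edgeR 4.0.16 in R 4.3.3 on all 6 cultures, without a block, with Benjamini-Hochberg adjustment over all genes tested and calls under 0.05. To give normalized counts, each culture was scaled to the mean effective library size over the 6. The SE is the absolute log2 fold change divided by the square root of F, and intervals are 95%. The biological coefficient of variation was 12.4%. Counts per culture summed to 13900965 to 16869948, and SEs of the members were 0.09 to 0.22. Centred log2 levels used a prior count of 2.

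Alternatives were fits without 1 culture, limma-voom (limma 3.58.1), the Wald test of DESeq2 1.42.0, scaling by size factors of DESeq2 or by library size, a filter of 10 counts in all 6 cultures or none, a block on the replicate number, and loess offsets (span 0.3) that remove trends with GC and length from the libraries, with and without that block. Positions and lengths came from GENCODE release 44 (GRCh38), in which 23161 of the table's names were found by symbol and 1372 by an older symbol. Both properties were found for 97.3% of tested genes. Promoter windows came from the RefSeq table, where 9 of the 10 members had one. Figures were drawn with matplotlib 3.10.9. Calculations were tested on simulated counts.

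The members, lists and named genes were chosen with earlier results of these data known. Named were the members, *NUDT6*, up to 5 called genes by smallest p in each list, and the 3 genes nearest in profile to *FGF2* and to *DUSP6*, apart from those said to be named after their values were seen. 1 gene of the marker lists is not reported singly here.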

Additional observations from a re-analysis of the deposited data

How the results depend on the processing

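Of the 150 log2 fold changes of the 10 members under 15 alternatives, 130 kept their direction and side of the threshold, 12 newly passed it, 3 (*FGF2*) lost it and 5 changed sign near 0. *FGFR2* reversed to -0.00142 with the GC and length correction and to -0.00297 when the replicate block was added, and lay between -0.0316 and 0.0796 when a culture was left out. *FRS2* reversed to 0.00367 and 0.00376 in these corrected fits. *NUDT6* reversed to -0.0152 with limma-voom and lay between -0.12 and 0.29 when a culture was left out. None of these passed the test, and the cause was not tested.

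With the GC and length correction 1409 genes were called lower and 1342 higher, in place of 690 and 804, and with the correction and the replicate block 1124 and 1121. Members called lower were 2 without the filter and 3 in both corrected fits, in which 1 was called higher. Leaving out 1 culture gave 233 to 1238 genes lower and 289 to 1274 higher, with 0 to 3 members lower and 0 to 2 higher. The most calls came without control replicate 2, where 2 members were called in each direction. Fewer cultures enter these fits.

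The numbers gave no sign of pairing. Deviations of same-numbered cultures correlated at -0.199, -0.112 and -0.044, and 0 of 6 cultures correlated best with its own number. The replicate block gave 619 genes lower and 714 higher, and *FGF2* at -0.67 (adjusted p = 0.0151, edgeR).

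Per kilobase of the longest transcript, control levels became 12.6 for *FGFR1*, 9.60 for *FGFR2*, 2.38 for *FGFR4*, 4.90 for *SPRY1*, 9.01 for *SPRY2* and 1.62 for *SPRY4*. Receptor shares became 40.6% for *FGFR1*, 30.9% for *FGFR2*, 20.9% for *FGFR3* and 7.60% for *FGFR4*, and shares of the summed Sprouty level 31.4% for *SPRY1* and 57.9% for *SPRY2*. The 95% intervals of uncalled members still span sizable differences, such as -0.99 to -0.04 for *DUSP6*.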

Other observations

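Fibroblast markers were carried by *COL1A1* (647 ± 89.6 normalized counts in knockdown and 652 ± 60.6 in control). Summed endothelial markers were 2.70 to 4.68 CPM in knockdown and 5.94 to 6.58 in control, mostly from *KDR*, while *VWF* had 1 to 9 counts. Summed leukocyte markers were 5.61 to 7.32 in knockdown and 4.82 to 6.61 in control, mostly from *CD68*. Summed fibroblast markers were 44.2 to 65.5 and 40.1 to 54.4, with 3 of 6 tested and 0 called, and *COL1A2* ranged from 0 normalized counts in control replicate 2 to 116 in knockdown replicate 3. The part of these markers in the FGF pathway values was not tested.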
